A study of Mus musculus with 7 samples.

Results

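Atf6, Dnajb9 and Ero1lb are genes of the endoplasmic reticulum stress response and of protein folding in that organelle. They were found by symbol in a deposited table of genes that differ between Batf knockout (KO) and wild-type (WT) B cells, where they are 3 of 752 genes. RNA was sequenced from splenic B cells isolated on magnetic columns from 3 Batf KO mice and 4 WT mice, all on the C57BL/6J background. Both genotypes were stimulated alike, with 20 µg/mL of lipopolysaccharide (LPS), a bacterial product sensed by TLR4, plus 20 ng/mL of the cytokine IL-4, and were harvested at 6 h. No group without stimulation was measured. Replicate numbers follow accession order and do not pair mice across genotypes. The labels give neither the knockout allele nor the age or sex of the mice.

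Secreted and membrane proteins, immunoglobulins among them, fold inside the endoplasmic reticulum. When unfolded protein accumulates there, the sensors IRE1, PERK and ATF6 switch on the unfolded protein response, which raises chaperones, oxidases and degradation factors. ATF6 is a membrane-bound transcription factor that is cut free in the Golgi and enters the nucleus. DNAJB9, also called ERdj4, is a J-domain cochaperone of the chaperone BiP that also keeps IRE1 in check. ERO1LB, also called ERO1-beta, reoxidises protein disulphide isomerase so that it can form new disulphide bonds. B cells enlarge this machinery as they become antibody-secreting plasma cells.

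The direction of change was not shared. Atf6 and Dnajb9 were lower in Batf KO, at 77.0% and 65.9% of the WT mean, and Ero1lb was higher, at 139% of it. These are modest changes in genes with ample reads, between 831 and 6679 reads for each of the 3 genes in any library. In bulk RNA, fewer cells of a type and less RNA per cell cannot be told apart.

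Levels are in CPM, read counts scaled to a common library size. The effective library size, recovered as count divided by CPM, ranged between 23675459 and 30844920 reads for Batf KO, and between 24891094 and 44728937 reads for WT. Batf itself averaged 66.5 ± 3.49 CPM (SD, n = 3) in Batf KO and 319 ± 11.2 CPM (SD, n = 4) in WT, so reads from the gene remained in the KO libraries. WT libraries were alike in pairs. A chi-square statistic per gene was 18.4 between WT replicates 1 and 2 and 20.8 between replicates 3 and 4. For the remaining WT pairs it was 33.4 to 49.8, and among the Batf KO libraries 16.8 to 24.1. It was computed from the read counts of genes in the deposited table and grows with read depth. Its size in WT and in Batf KO is therefore not directly comparable.

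The authors' deposited table lists a gene only where their own comparison of the genotypes passed a false discovery rate (FDR) of 0.05. That held for 752 of 19734 genes, or 3.81%, and for all 3 genes described here. In the authors' deposited table the FDR is 0.000504 for Atf6, 5.59e-06 for Dnajb9 and 0.000334 for Ero1lb. The counts were refitted with the quasi-likelihood test of edgeR for the 667 genes with a mean of at least 1 CPM, which include these 3. All 667 genes passed an adjusted p of 0.05 (100%), as a table chosen on the same contrast must nearly do, so passing says nothing particular of the 3 genes. A stricter value adjusted over all 19734 genes left 286 of the 667 (42.9%), and each of the 3 genes was among them. The authors' own FDR, adjusted over the same 19734 genes, had passed for all 752. A gene said below not to pass over 19734 genes thus failed in the refit alone. The groups did not overlap for 641 of the 667 genes (96.1%), nor for any of the 3. All tests of single genes below therefore check the deposited list and are no independent evidence.

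Atf6 (ENSMUSG00000026663; chromosome 1, 170704674 to 170867771, minus strand, GRCm38) had 113, 119 and 117 CPM in Batf KO replicates 1 to 3, against 142, 148, 149 and 163 CPM in WT replicates 1 to 4. Each Batf KO library lay below each WT library, and the nearest libraries of the groups were 23.5 CPM apart. The means were 116 ± 3.09 CPM (SD, n = 3) in Batf KO and 151 ± 8.96 CPM (SD, n = 4) in WT. Atf6 fell by 0.38 on the log2 scale (SE 0.07; edgeR adjusted p = 0.00101, or 0.0297 adjusted over 19734 genes). The Batf KO libraries differed among themselves by little more than counting error, with a coefficient of variation of 2.66% where counting alone gives 1.79%. The WT libraries varied by 5.95%, where counting alone gives 1.41%, and replicate 4 was the highest. The small RNA genes Gm23523 and Gm25235 lie inside Atf6 but overlap none of its exons.

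Dnajb9 (ENSMUSG00000014905; chromosome 12, 44205559 to 44210326, minus strand) was also lower, at 45.4, 38.8 and 38.5 CPM in Batf KO replicates 1 to 3, against 57.5, 63.1, 67.4 and 60.0 CPM in WT replicates 1 to 4. The groups did not overlap, and the nearest libraries were 12.2 CPM apart. Batf KO replicate 1 was the highest of its group and WT replicate 3 the highest of all. The means were 40.9 ± 3.91 CPM (SD, n = 3) in Batf KO and 62.0 ± 4.26 CPM (SD, n = 4) in WT. Its log2 fold change was -0.60 (SE 0.09; edgeR adjusted p = 0.000486, or 0.0144 adjusted over 19734 genes). Variation between mice exceeded counting error in both groups, at 9.56% in Batf KO where counting gives 3.04%, and 6.86% in WT where counting gives 2.22%. Dnajb9 lies on the same chromosome as Batf, 41.5 Mb away. One of its exons overlaps the microRNA gene Mir5627 on the opposite strand by 14 bases.

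Ero1lb (ENSMUSG00000057069; chromosome 13, 12565874 to 12611396, plus strand) moved the other way. It had 47.4, 46.9 and 48.2 CPM in Batf KO replicates 1 to 3, against 35.3, 35.8, 31.9 and 33.4 CPM in WT replicates 1 to 4. Each Batf KO library lay above each WT library, with 11.1 CPM between the nearest. The means were 47.5 ± 0.632 CPM (SD, n = 3) in Batf KO and 34.1 ± 1.80 CPM (SD, n = 4) in WT. On the log2 scale Ero1lb rose by 0.48 (SE 0.07; edgeR adjusted p = 0.000461, or 0.0136 adjusted over 19734 genes). The Batf KO libraries were closer together (1.33%) than counting error alone would on average leave them (2.80%), and the WT libraries varied by 5.28% where counting gives 2.98%. In WT, replicates 1 and 2 were above replicates 3 and 4. The small nucleolar RNA gene Gm25483 lies within Ero1lb and overlaps none of its exons.

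**Figure D1:**
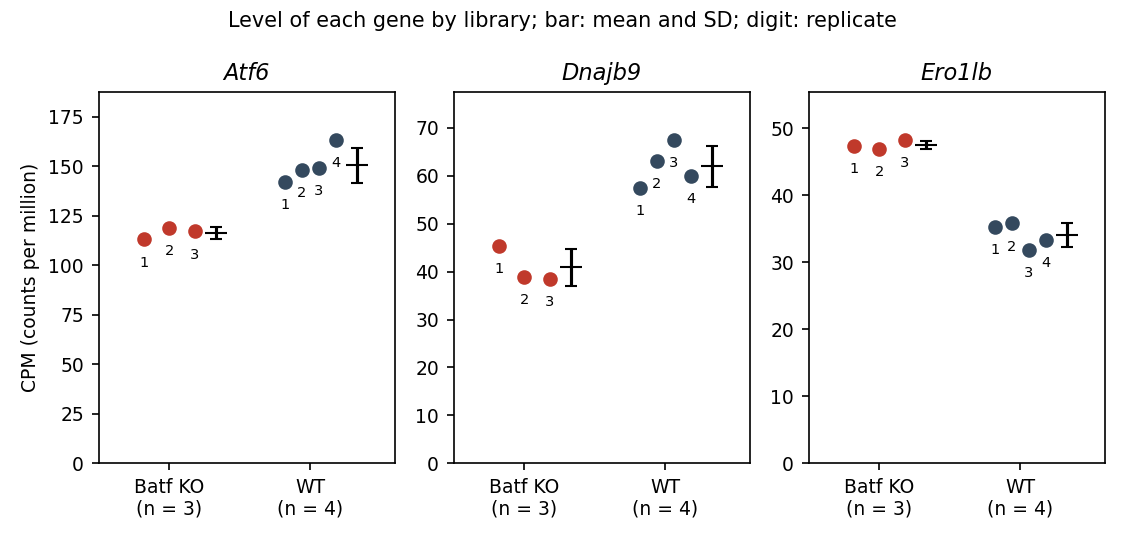
CPM of Atf6, Dnajb9 and Ero1lb (vertical axes, from 0) in each Batf KO library (red, n = 3) and WT library (dark, n = 4), with the mean and SD as bars and the replicate number under each point. The Batf KO points of Atf6 and Dnajb9 lie below all WT points, and those of Ero1lb lie above them, at 46.9 to 48.2 CPM against 31.9 to 35.8 CPM.

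An exact permutation test of the group means, two-sided over the 35 groupings of 3 against 4 libraries, gave p = 0.0286 for each of the 3 genes. This is the smallest p that the design allows when the size of the difference is compared, and 0.0571 when the smaller tail is doubled. The median size of the log2 fold change over the 667 fitted genes was 0.61. Dnajb9 was near that median, and the changes of Ero1lb and Atf6 were on the small side. Ranked by the size of the log2 fold change among the 667 fitted genes, Dnajb9 was at position 345, Ero1lb at 470 and Atf6 at 586. The median log2 fold change was 0.59 over the 339 fitted genes that were higher in Batf KO and -0.64 over the 328 that were lower.

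**Figure D2:**
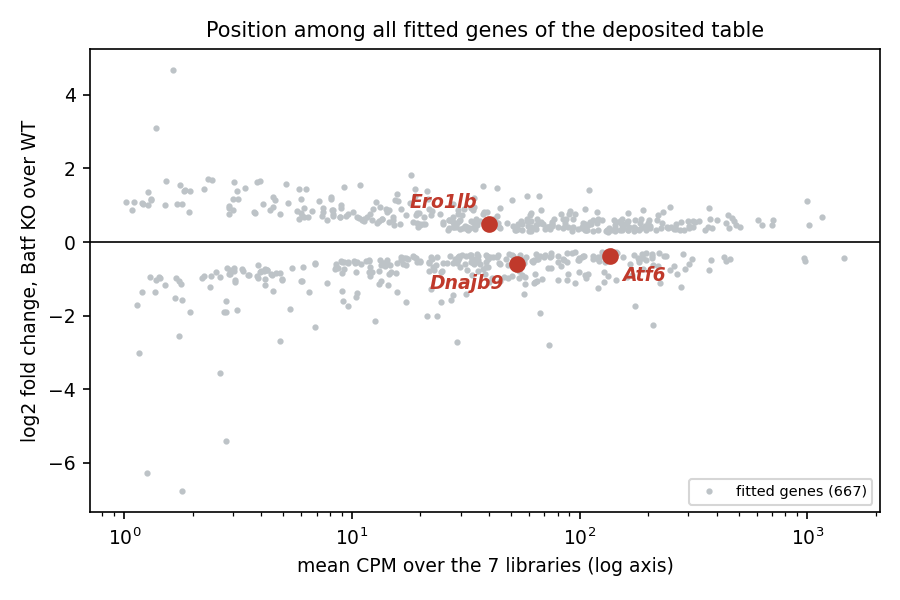
Log2 fold change, Batf KO over WT (vertical axis), against the mean CPM over the 7 libraries (horizontal log axis) for the 667 fitted genes (grey), with Atf6, Dnajb9 and Ero1lb in red. The empty band around 0 reflects that the deposited table holds only genes past the authors' threshold, and Atf6 (log2 fold change -0.38) lies near its edge.

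Compared per length, as CPM per kilobase of annotated exons, the order of the genes was the same in both groups. Dnajb9 was at 16.0 ± 1.53 CPM per kb (SD, n = 3) in Batf KO and 24.3 ± 1.67 CPM per kb (SD, n = 4) in WT. Atf6 was at 12.6 ± 0.334 CPM per kb (SD, n = 3) in Batf KO and 16.3 ± 0.971 CPM per kb (SD, n = 4) in WT. Ero1lb was the lowest, at 7.14 ± 0.0951 CPM per kb (SD, n = 3) in Batf KO and 5.12 ± 0.27 CPM per kb (SD, n = 4) in WT. Within each group the ranges of neighbouring genes in this order did not overlap. The exon lengths of 2.55 kb for Dnajb9, 9.23 kb for Atf6 and 6.65 kb for Ero1lb join all annotated transcripts, and which of these the cells used was not measured.

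Ratios between the genes within a library do not depend on library size, and 3 pairs were compared. The CPM of Dnajb9 was 0.958, 0.827 and 0.799 times that of Ero1lb in Batf KO replicates 1 to 3, against 1.63, 1.76, 2.12 and 1.80 times in WT replicates 1 to 4. The cochaperone transcript thus had fewer reads than the oxidase transcript in each Batf KO library and more in each WT library. The mean log2 ratio was -0.22 ± 0.14 (SD, n = 3) in Batf KO and 0.86 ± 0.16 (SD, n = 4) in WT, a difference of -1.08 (exact permutation p = 0.0286, adjusted over the 3 pairs 0.0429). For Ero1lb over Atf6 the mean log2 ratio was -1.29 ± 0.05 (SD, n = 3) in Batf KO and -2.14 ± 0.14 (SD, n = 4) in WT, a difference of 0.86 with the same exact permutation p and adjusted value. Whether these 2 ratios pass depends on how the two-sided p is formed. With the smaller tail doubled, in place of the size of the difference, the exact permutation p is 0.0571 and the adjusted value 0.0857 for each, and neither passes. The convention used here was settled after both p-values had been seen, so the ratios are best read by their values and the separation of the groups. Both differences also follow from genes already listed for opposite changes. For Dnajb9 over Atf6, which fell together, the mean log2 ratio was -1.51 ± 0.17 (SD, n = 3) in Batf KO and -1.28 ± 0.13 (SD, n = 4) in WT, and the groups overlapped. This difference of -0.23 did not pass (exact permutation p = 0.114, adjusted 0.114). Single Batf KO libraries minus single WT libraries gave -0.47 to 0.13, so an equal fall of both genes was not shown and neither was a larger fall of Dnajb9.

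**Figure D3:**
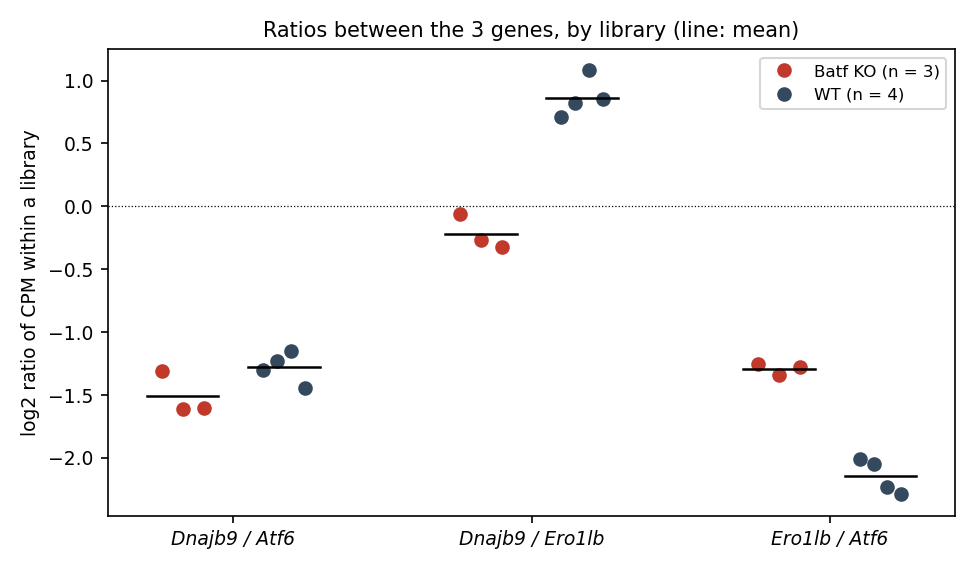
Log2 ratio of CPM between pairs of the 3 genes within each library (vertical axis), for Batf KO (red, left of each pair, n = 3) and WT (dark, n = 4), with the mean as a line. The groups are apart for both ratios that involve Ero1lb and overlap for Dnajb9 over Atf6, where the means are -1.51 in Batf KO and -1.28 in WT.

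The upstream sequence of Ero1lb is shown because it holds a full endoplasmic reticulum stress element (ERSE), the paired motif bound by NF-Y and by ATF6 or XBP1. The motif is CCAAT and, 9 bases further on, CCACG. RefSeq windows of 250 bases before to 50 after the annotated start were searched on both strands. Of 32851 such windows in the mouse genome, 39 (0.119%) hold a full ERSE, and 10765 (32.8%) hold CCACG alone. In Ero1lb (RefSeq symbol Ero1b) the ERSE lies on the strand opposite to the gene, 201 to 183 bases before the start. Capitals mark its parts as read on the gene's strand, CGTGG and ATTGG. The stretch is chr13:12565633-12565873 of GRCm38.p6, plus strand, and ends before the start of the gene in the GENCODE M21 annotation.

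Ero1b: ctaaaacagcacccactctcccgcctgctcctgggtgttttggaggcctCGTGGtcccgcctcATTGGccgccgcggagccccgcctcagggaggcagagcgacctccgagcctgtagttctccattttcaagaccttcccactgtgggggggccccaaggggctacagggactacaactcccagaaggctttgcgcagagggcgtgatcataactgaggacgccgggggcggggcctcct

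Dnajb9 has no full ERSE in its window. It holds CCACG at a pair of places on the gene's own strand, 108 to 104 and 15 to 11 bases before the RefSeq start. The first is shown with its flanks, as the part of the ERSE that the window does hold, and there it overlaps the palindrome CACGTG. The stretch is chr12:44210159-44210188, minus strand, with CCACG in capitals. A longer transcript in GENCODE M21 begins upstream of the whole window. The window, this stretch included, is thus transcribed in that model, and the bases before that start were not searched.

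Dnajb9: aacaacagttttCCACGtgcgcgtagggcg

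The remaining motifs searched were the ERSE-II (ATTGG, then 1 base, then CCACG), the core TGACGTGG of the unfolded protein response element and the AP-1 site TGANTCA, which BATF binds with JUN proteins. They occur in 0.0365%, 0.676% and 7.81% of all windows. None of these was found in the windows of Dnajb9 or Ero1lb. A match is a description of letters and not a measured binding site, and a missing match says only that the letters are not in that window. The table of windows held 6 of the 8 endoplasmic reticulum genes discussed here, without Atf6 and Sec11c. The letters CCACG, inside an ERSE or outside it, are not particular to Dnajb9. They were also found in the windows of Ero1lb, Erp44, Derl3 and Ppp1r15a, and not in that of Atf3.

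Lists of other genes of the pathway were searched in the deposited table to see how far the change reached. The lists cover unfolded protein response sensors and factors, the PERK arm, J-domain proteins, chaperones, disulphide bond formation, endoplasmic reticulum-associated degradation, translocation, N-glycosylation and export, with 167 genes in all. The table held 8 of them, or 4.79%, and 5 of 164 (3.05%) without the 3 genes described above, beside 3.81% of all genes tested by the authors. In Batf KO 4 of the 8 were higher and 4 lower. Their median log2 fold change was 0.05, beside 0.30 over all 667 fitted genes. Of the 8, 5 passed adjusted over 19734 genes (Atf6, Dnajb9, Ero1lb, Erp44 and Sec11c), beside 286 of the 667 fitted genes (42.9%). Without Atf6, Dnajb9 and Ero1lb, 2 of 5 passed, near that share. For genes outside the table no level can be given. None of 19 chaperones and lectins (Hspa5, which encodes BiP, Hsp90b1 and Calr among them), none of 18 N-glycosylation genes and none of 19 export genes was listed. Xbp1, Atf4, Ern1 (IRE1) and Eif2ak3 (PERK) were not listed either, so Atf6 was 1 of 16 sensors and factors. A gene outside the table did not pass the authors' threshold, which does not show that it was unchanged.

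Disulphide bond formation had 2 of 24 genes listed, both higher in Batf KO. Beside Ero1lb this was Erp44, which encodes a thioredoxin-family protein that holds ERO1 oxidases and incompletely assembled IgM back in the early secretory pathway. Erp44 had 298, 289 and 267 CPM in Batf KO replicates 1 to 3, against 155, 148, 194 and 189 CPM in WT replicates 1 to 4. Each Batf KO library lay above each WT library, and WT replicates 3 and 4 were above replicates 1 and 2, the reverse of their order for Ero1lb. Erp44 rose by 0.73 on the log2 scale (SE 0.10; edgeR adjusted p = 0.00036, or 0.0106 adjusted over 19734 genes).

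Sec11c, a catalytic subunit of the signal peptidase that trims proteins as they enter the organelle, was the only listed gene of 25 in the translocation list and changed the most of the 8. It had 41.1, 34.8 and 40.2 CPM in Batf KO replicates 1 to 3, against 83.0, 80.6, 87.2 and 80.7 CPM in WT replicates 1 to 4. Its Batf KO mean was 46.7% of the WT mean. This was a log2 fold change of -1.10 (SE 0.08; edgeR adjusted p = 1.72e-05, or 0.00051 adjusted over 19734 genes).

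Derl3, a derlin of the degradation pathway, was the only listed gene of 23 in its list. It had 7.62, 7.05 and 10.6 CPM in Batf KO replicates 1 to 3, against 15.6, 13.4, 12.1 and 10.3 CPM in WT replicates 1 to 4. The groups overlapped, since Batf KO replicate 3 lay just above WT replicate 4. The log2 fold change was -0.61 (SE 0.19), with an adjusted p of 0.012 in edgeR's test, and it did not pass adjusted over 19734 genes (0.354). Derl3 is the other listed gene with a full ERSE in its window, chosen for display after that was seen. The motif again lies on the strand opposite to the gene, 156 to 138 bases before the start, and is marked in capitals as for Ero1b. The stretch is chr10:75893148-75893397, plus strand. Of the 6 genes with a window, Ero1lb and Derl3 thus hold the full motif, 1 higher and 1 lower in Batf KO.

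Derl3: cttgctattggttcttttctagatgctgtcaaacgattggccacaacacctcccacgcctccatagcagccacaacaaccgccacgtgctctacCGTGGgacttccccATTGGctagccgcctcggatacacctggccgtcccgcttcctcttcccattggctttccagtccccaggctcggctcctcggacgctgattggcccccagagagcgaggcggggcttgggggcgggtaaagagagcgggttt

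Of 13 genes of the PERK arm and its stress output 2 were listed, both higher in Batf KO. Ppp1r15a, also called GADD34, guides a phosphatase to eIF2-alpha and so ends the PERK signal. It had 168, 152 and 207 CPM in Batf KO replicates 1 to 3, against 103, 125, 128 and 124 CPM in WT replicates 1 to 4. Its log2 fold change was 0.55 (SE 0.12), and in the refit it did not pass adjusted over 19734 genes (edgeR adjusted p = 0.0651). The authors' own FDR for Ppp1r15a was 5.74e-05. Exons of Ppp1r15a overlap Tulp2 on the opposite strand, and whether the counting used strand is not stated in the labels. Atf3, a stress-induced basic leucine zipper factor, had 57.8, 64.5 and 45.6 CPM in Batf KO replicates 1 to 3, against 31.4, 43.9, 34.9 and 26.4 CPM in WT replicates 1 to 4. The lowest Batf KO library was 1.66 CPM above the highest WT library. Its log2 fold change was 0.71 (SE 0.18), and in the refit it did not pass adjusted over 19734 genes either (edgeR adjusted p = 0.13). The authors' own FDR for Atf3 was 0.000729.

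**Figure D4:**
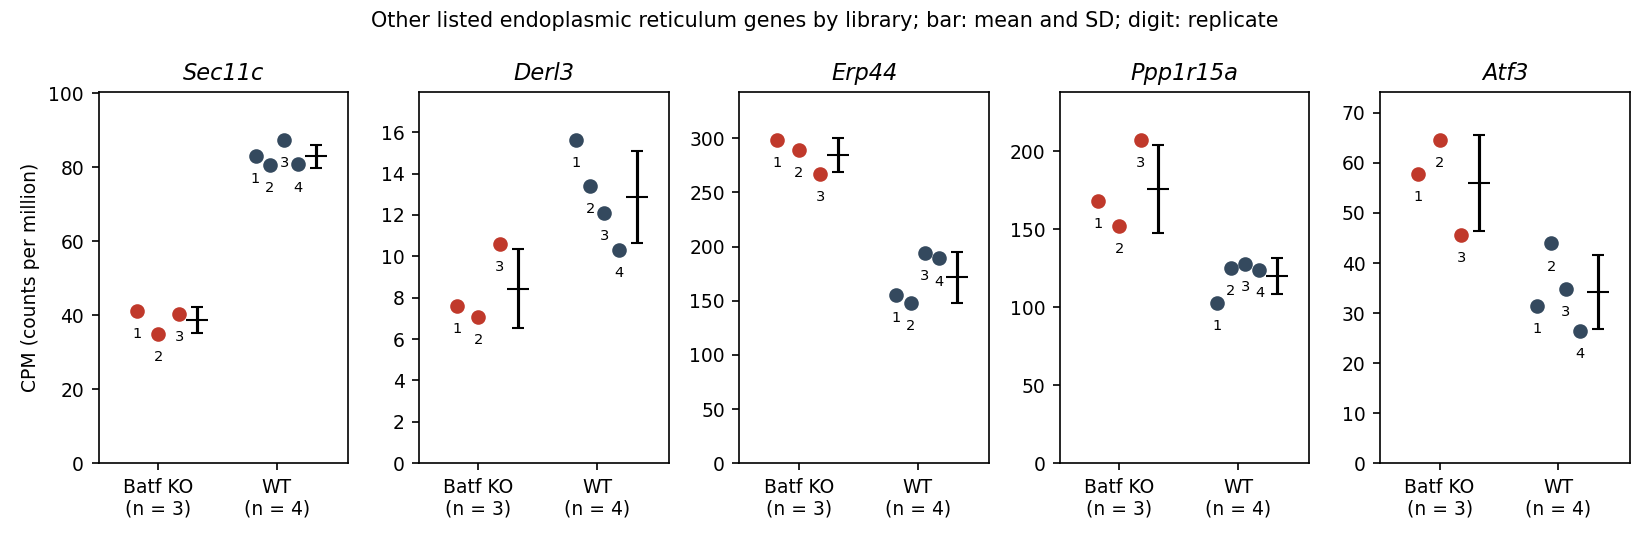
CPM (vertical axes, from 0) of the 5 other listed endoplasmic reticulum genes in each Batf KO library (red, n = 3) and WT library (dark, n = 4), with mean and SD as bars and the replicate number under each point. Sec11c and Erp44 are separated widely (34.8 to 41.1 CPM in Batf KO against 80.6 to 87.2 CPM in WT for Sec11c), whereas Derl3 overlaps between the groups.

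**Figure D5:**
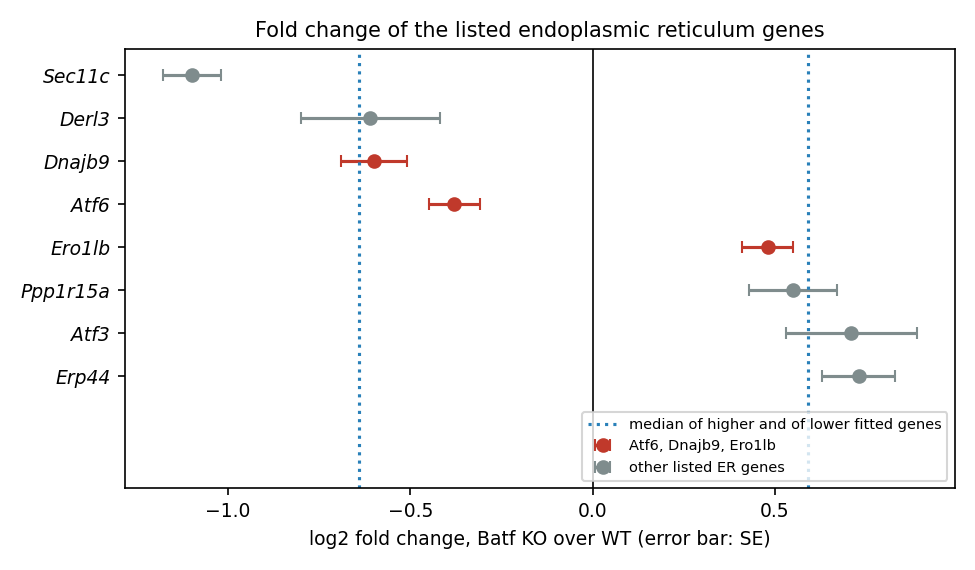
Log2 fold change, Batf KO over WT, with its SE (horizontal axis) for the 8 listed endoplasmic reticulum genes, with Atf6, Dnajb9 and Ero1lb in red. Dotted lines mark the median of all lower (-0.64) and all higher (0.59) fitted genes, and 4 genes lie on each side of 0.

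A list of plasma cell regulators and related genes, chosen with earlier results of these data known, held 10 genes found in the annotation. Of these 5 were listed, beside 3.81% of all genes tested, with 2 higher and 3 lower in Batf KO. Prdm1, which encodes the plasma cell regulator BLIMP1, averaged 6.11 ± 0.814 CPM (SD, n = 3) in Batf KO and 10.2 ± 2.57 CPM (SD, n = 4) in WT, and did not pass adjusted over 19734 genes (edgeR adjusted p = 0.276). WT replicates 3 and 4 (11.6 and 13.0 CPM) were above replicates 1 and 2 (7.30 and 8.84 CPM). Of the other 4, the log2 fold change was 1.12 for Irf4 and 0.56 for the germinal centre repressor gene Bcl6, and -0.86 for Bach2 and -0.76 for the coactivator gene Pou2af1. These 4 passed adjusted over 19734 genes.

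Markers of other cells were also in the table. Of the markers found in the annotation, it held 1 of 4 for plasma cells and 2 of 12 for T and NK cells. It held 1 of 11 for myeloid cells and 1 of 7 for erythroid cells and platelets. The share over all genes tested was 3.81%. The T and NK cell markers moved in opposite directions. Cd8b1, a chain of the CD8 coreceptor, averaged 6.46 ± 1.12 CPM (SD, n = 3) in Batf KO and 2.05 ± 0.609 CPM (SD, n = 4) in WT, a log2 fold change of 1.65 that also passed adjusted over 19734 genes (edgeR adjusted p = 0.013). Tbx21 (T-bet), a factor of T and NK cells that B cells can express too, was at 0.186 to 0.465 CPM in Batf KO and 1.25 to 10.1 CPM in WT, with WT replicate 2 the highest. Its log2 fold change of -3.55 did not pass adjusted over 19734 genes (edgeR adjusted p = 0.088). The sum of both was 5.70 to 7.88 CPM in Batf KO and 2.81 to 12.6 CPM in WT. The myeloid marker Zbtb46 was at 73.6 to 89.6 CPM in Batf KO and 47.4 to 65.6 CPM in WT, and did not pass adjusted over 19734 genes (edgeR adjusted p = 0.0744). The platelet marker Pf4 was too low to be fitted, at 0.76 to 1.04 CPM in Batf KO and 0.281 to 0.627 CPM in WT. Of the plasma cell markers the listed gene was Prdm1, described above. Of 10 B cell markers 2 were listed (20%), both higher in Batf KO. Ms4a1 (CD20) averaged 879 ± 40.9 CPM (SD, n = 3) in Batf KO and 580 ± 39.6 CPM (SD, n = 4) in WT. Blk averaged 104 ± 6.94 CPM (SD, n = 3) in Batf KO and 72.5 ± 4.4 CPM (SD, n = 4) in WT. Their log2 fold changes of 0.6 and 0.52 passed adjusted over 19734 genes (edgeR adjusted p = 0.00392 and 0.0124). The part of other cells in the values of Atf6, Dnajb9 and Ero1lb was not tested.

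The genes whose profile over the 7 libraries was most like each of the 3 were found by the root mean square difference of log2(CPM + 0.5) after each gene's mean was removed, among 666 fitted genes. For Atf6 they were Gfpt1, which encodes the rate-limiting enzyme of hexosamine synthesis, at a distance of 0.04, then Fam53b and Fam199x. The log2 fold change of Gfpt1 was -0.40, near that of Atf6. For Dnajb9 they were the deubiquitinase gene Otulin (0.072), the adhesion protein gene Nptn and the ubiquitin ligase gene Siah2. For Ero1lb they were the guanine nucleotide exchange factor gene Cyth1 (0.054), Spib, which encodes an ETS factor of B cells, and the palmitoyltransferase gene Zdhhc18. Dnajb9 was at position 136 in likeness to Atf6, and Atf6 at position 103 in likeness to Dnajb9. The median distance was 0.40, 0.49 and 0.43 for Atf6, Dnajb9 and Ero1lb. The genotype difference that selected the table dominates this measure.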

How the data were processed

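RNA-seq of 3 Batf KO and 4 WT libraries was used, grouped by the genotype label, each taken as 1 mouse. The design text also mentions 2 replicates per sample, whose nature is not stated. TopHat2 2.0.6, HTSeq 0.5.3p7 and edgeR 3.03, and the build mm10, appear in the submitters' processing notes without roles. For annotation and strand setting the sources used here name nothing. Per the file headers, the authors deposited 1 table with read counts and CPM for every gene and library, together with their comparison as a log2 fold change, mean level in log2 CPM, likelihood ratio score, p-value and FDR. The number of genes the authors tested (19734) was recovered from the ratio of FDR to p-value. The values of their comparison are used only where credited.

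Genes with a mean of at least 1 CPM over all libraries (667 of 752) were fitted with edgeR 4.0.16 in R 4.3.3, two-sided, on the counts and the effective library sizes, with Benjamini-Hochberg adjustment over the fitted genes and, more strictly, over 19734 genes, where those outside the table count as not significant. The SE is the log2 fold change divided by the square root of F. The edgeR step was tested on simulated data. Exact permutation tests used scipy 1.17.1 and the absolute difference of means. Doubling the smaller tail was tried first, and both p-values had been seen when the absolute difference was settled on, the form whose smallest p the plan stated. Alternatives were TMM factors, DESeq2 1.42.0, limma 3.58.1 on log2(CPM + 0.5) and log2(CPM + 1), other filters and leaving libraries out. Counting error is the square root of the mean relative Poisson variance (1 divided by the reads) of the group's libraries, as a percentage. Positions come from GENCODE M21 (GRCm38, also called mm10), and sequences from RefSeq (GRCm38.p6). Genes named beyond Atf6, Dnajb9 and Ero1lb are the listed genes of the pathway and marker lists and the 3 most alike in profile. The genes and lists were chosen with earlier results of these data known.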

Additional observations from a re-analysis of the deposited data

Results flagged for a closer look

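In 16 sets of 4 WT values, a library was noted where its gap to the nearest other, as a share of the group's range, exceeded Dixon's critical value. Chance alone marks about 1 in 20 such sets, and 1 was found. Ppp1r15a was at 103 CPM in WT replicate 1, and at 124 to 128 CPM in the other WT libraries. No value of Atf6, Dnajb9 or Ero1lb, nor a ratio between them, was marked in WT. The groups of 3 Batf KO libraries are too small for this rule. No explanation was tested.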

How the results depend on the processing

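Atf6, Dnajb9 and Ero1lb kept their direction and passed in each of the 16 alternatives run for them, which is no independent evidence in a table selected on the same libraries. The log2 fold change ran from -0.44 to -0.32 for Atf6, from -0.68 to -0.56 for Dnajb9 and from 0.42 to 0.54 for Ero1lb, and the highest adjusted p (0.0297, 0.0144 and 0.0136) came from adjusting over 19734 genes. That stricter adjustment left 286 of 667 genes and 5 of the 8 endoplasmic reticulum genes, fewer by construction. With libraries left out, 621 to 667 genes and 7 or 8 of the 8 were called, the 1 lost being Derl3 (adjusted p = 0.0514 without Batf KO replicate 2 and 0.0792 without WT replicates 1 and 2). Prdm1 lost its call without WT replicates 3 and 4 (adjusted p = 0.0668). The log2 ratio of Ero1lb to Atf6 differed by 0.97 without WT replicates 1 and 2 and by 0.74 without WT replicates 3 and 4, and the cause was not tested. With libraries left out no permutation test of a ratio can reach 0.05, so those give values alone. TMM factors moved the median of all genes by -0.06. The permutation p was first formed by doubling the smaller tail, and the form reported, the absolute difference of means, was settled on after the p-values of both had been seen. With the doubled tail the differences of -1.08 for Dnajb9 to Ero1lb and 0.86 for Ero1lb to Atf6 do not pass (adjusted permutation p = 0.0857, against 0.0429). No named gene reversed. No paired analysis was possible because replicate numbers 1 to 3 and 1 to 4 were given here in accession order, and the labels number every mouse differently. In those labels WT replicates 1 and 2 are numbered just below and just above the Batf KO mice, and WT replicates 3 and 4 higher. Against WT replicates 1 and 2 alone the log2 fold change was -0.32 for Atf6, -0.56 for Dnajb9 and 0.42 for Ero1lb. Against WT replicates 3 and 4 alone it was -0.43, -0.64 and 0.54. What the numbers stand for is not stated, and the difference was not tested.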
